A study of Rattus norvegicus with 18 samples.

Results

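The subunits of the respiratory chain and of ATP synthase that are made from mitochondrial DNA were followed in sorted rat beta cells for 6 genes: *Co1*, *Co2* and *Co3* of complex IV, *Cyb* of complex III, and *Atp6* and *Atp8* of ATP synthase. They are 6 of the 27654 gene rows in the deposited tables. Their rows were chosen by Ensembl ID (ENSRNOG00000034234, ENSRNOG00000030371, ENSRNOG00000030700, ENSRNOG00000031766, ENSRNOG00000031979 and ENSRNOG00000033299 in the order above), a rule that uses no measured value, although the set was proposed with earlier results of these data known. The tables hold no gene names, so the names are those that came with this list of IDs. All 6 had counts in all 18 libraries and passed the filter on low counts.

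The 18 libraries fell into 4 groups by their labels: 4 old replicative, 4 old quiescent, 5 young replicative and 5 young quiescent. All came from isolated rat islets cultured overnight at 11.1 mM glucose with 10% serum and exposed to 10 micromolar EdU, a thymidine analogue that is built into new DNA and so marks cells that pass through S phase. Islets came in 9 batches, each from 2 rats, and both states were sorted from every batch, so a library stands for the pooled cells of its batch. The sources used here do not give the rats' ages, their strain or the gate of the sort, and the beta cell label could not be checked against marker genes because the IDs could not be paired with names. Total counts per library ran from 2975086 to 8639541 in old replicative, 4639863 to 10365264 in old quiescent, 5439091 to 8242896 in young replicative and 2723660 to 14222719 in young quiescent libraries. Genes without a count made up 35.7% to 57.1% of all genes in old replicative, 28.1% to 36.9% in old quiescent, 14.4% to 46.6% in young replicative and 13.7% to 31.1% in young quiescent libraries. Young quiescent replicate 1 (13.7%) and young replicative replicate 1 (14.4%) had the fewest, and they also held the highest shares of counts in the 6 genes, and the part of this in the results was not tested.

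Mitochondria carry their own circular genome, whose protein-coding genes all encode membrane subunits of oxidative phosphorylation. Long transcripts read from each strand are cut into the mature RNAs, so many of these genes share an RNA precursor, and their RNA level depends on the number of genomes, on transcription and on the stability of each mature RNA. In beta cells oxidative phosphorylation links glucose to insulin release: ATP made from glucose closes potassium channels at the plasma membrane, and the resulting calcium entry releases insulin. In bulk RNA, fewer cells of a type and less RNA per cell cannot be told apart, and each level is relative to the rest of the library.

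Levels are given as CPM, the counts of a gene relative to the library's total, scaled by the trimmed mean of M-values (TMM) of edgeR. They were not divided by gene length, so they compare a gene between libraries and do not rank the genes. *Atp8* and *Atp6* overlap in the mitochondrial genome and share a mature RNA, and copies of mitochondrial sequence lie in the nuclear genome. How the authors counted such reads is not stated, so the values of *Atp8* and *Atp6*, and any reads shared with nuclear copies, carry an uncertainty that was not measured.

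None of the 6 genes passed the test after adjustment in any comparison, and libraries of a single group differed from each other by up to 5.62-fold (*Co1* in young quiescent libraries). In none of the 4 comparisons of groups did the CPM ranges of any of the 6 genes lie apart. Those of 16.5% of all genes did for old replicative against old quiescent and 7.09% for young replicative against young quiescent libraries. The share was 6.07% for old against young quiescent and 6.37% for old against young replicative libraries. With such shares, and 6 genes that vary together, finding none apart says little about these genes. The 6 genes together held 0.729%, 0.329%, 0.376% and 0.478% of all counts in old replicative libraries 1 to 4, against 0.492%, 0.304%, 0.274% and 0.154% in old quiescent libraries 1 to 4. They held 1.01%, 0.404%, 0.562%, 0.353% and 0.979% in young replicative libraries 1 to 5, against 1.12%, 0.376%, 0.343%, 0.292% and 0.588% in young quiescent libraries 1 to 5. The groups overlapped at both ages, taken as unpaired ranges, since no label says which libraries share a batch. Same-numbered libraries are set side by side in the last section. The highest and the lowest library of the series were both quiescent, young quiescent replicate 1 and old quiescent replicate 4. Counting error was far smaller than these differences: 95% Wilson intervals ran from 0.152% to 0.157% for the lowest and from 1.12% to 1.13% for the highest share, and they cover counting error only.

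**Figure D1:**
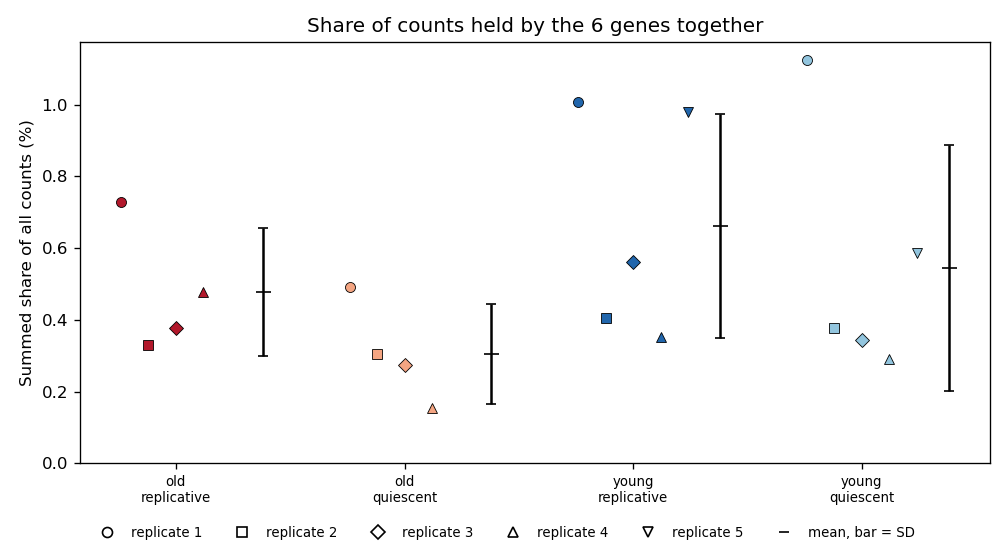
Percent of all counts held by Co1, Co2, Co3, Cyb, Atp6 and Atp8 together (vertical axis) in each of 18 libraries, by group. Each symbol is a library and marks its replicate number, and the bar to the right of each group is the mean with its SD. Every group spans a wide range, from 0.154% to 0.492% in old quiescent libraries and from 0.292% to 1.12% in young quiescent libraries, and the groups overlap.

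Group means of the summed share were 0.478% ± 0.178 in old replicative and 0.306% ± 0.140 in old quiescent libraries (SD, n = 4 each). In young islets they were 0.661% ± 0.313 in replicative and 0.545% ± 0.343 in quiescent libraries (SD, n = 5 each). The difference of replicative minus quiescent means was 0.172 percentage points in old and 0.116 in young islets. Old minus young was -0.239 among quiescent and -0.183 among replicative libraries. No p is given for these sums, since the 6 genes were chosen together. Single libraries carried much of each difference: without old replicative replicate 1 the old difference was 0.0885, and without young replicative replicate 1 or 5 the young difference was 0.0299 or 0.0366. Without young quiescent replicate 1 the young difference was 0.261, and the age difference among quiescent libraries was -0.0938.

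Complex IV, cytochrome c oxidase, passes electrons to oxygen, and its 3 mitochondrially made subunits form its core. *Co1* carries the heme and copper centre at which oxygen is reduced. It had 1589, 972, 775 and 1417 CPM in old replicative libraries 1 to 4, against 1135, 895, 808 and 415 CPM in old quiescent libraries 1 to 4. In young replicative libraries 1 to 5 it had 2224, 775, 1048, 1234 and 2722 CPM, against 3534, 697, 629, 831 and 1596 CPM in young quiescent libraries 1 to 5. Young quiescent replicate 1 was the highest library of all for this gene, while replicates 2 and 3 of the same group lay below all 5 young replicative libraries.

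*Co2* holds the copper centre that takes up electrons from cytochrome c. It had 762, 385, 606 and 490.3 CPM in old replicative libraries 1 to 4, against 624, 463, 457 and 266 CPM in old quiescent ones. In young replicative libraries 1 to 5 it had 919.9, 401, 637, 384 and 1163 CPM, against 1037, 416, 463, 391 and 699 CPM in young quiescent ones. High and low libraries occurred in both states at each age, and replicate 1 was the highest in 3 of the 4 groups. *Co3*, also a core subunit, lies beside *Co1* in the enzyme and carries no metal centre. Its level was 645, 291, 438 and 509 CPM in old replicative libraries 1 to 4, against 491, 338, 387 and 187 CPM in old quiescent ones. Its level was 876, 388, 559, 271 and 850.1 CPM in young replicative libraries 1 to 5, against 1242, 481, 403, 342 and 644 CPM in young quiescent ones. Here too the groups overlapped at both ages.

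*Cyb*, cytochrome b, is the only subunit of complex III made in mitochondria and carries electrons from ubiquinol across the membrane. It had 1139, 504, 603 and 774 CPM in old replicative libraries 1 to 4, against 848, 556, 492 and 277 CPM in old quiescent ones. In young replicative libraries 1 to 5 it had 1508, 747, 975, 753 and 1935 CPM, against 1798, 665, 641, 622 and 1174 CPM in young quiescent ones. The lowest young library, young quiescent replicate 4 at 622 CPM, still lay above 3 of the 4 old quiescent libraries.

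ATP synthase, complex V, makes ATP from the proton gradient. *Atp6* forms its proton path, and it had 1795, 660.2, 707 and 1019.6 CPM in old replicative libraries 1 to 4, against 1469.5, 898, 964 and 509.8 CPM in old quiescent ones. In young replicative libraries 1 to 5 it had 2284, 1101, 1500.1, 569 and 2902 CPM, against 2227, 1132, 1146, 1059 and 1975 CPM in young quiescent ones. Young replicative replicate 4 was the lowest young library for *Atp6*, although its *Co1* level was the third highest of its group. *Atp8*, a small membrane subunit beside *Atp6*, had 471, 153, 381 and 495 CPM in old replicative libraries 1 to 4, against 367, 216, 282 and 183 CPM in old quiescent ones. It had 711, 274, 379, 209 and 567 CPM in young replicative libraries 1 to 5, against 504, 331, 271, 276 and 415 CPM in young quiescent ones. Old replicative replicate 2 was the lowest library of the series for *Atp8*, while the other 3 old replicative libraries lay above all 4 old quiescent ones.

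**Figure D2:**
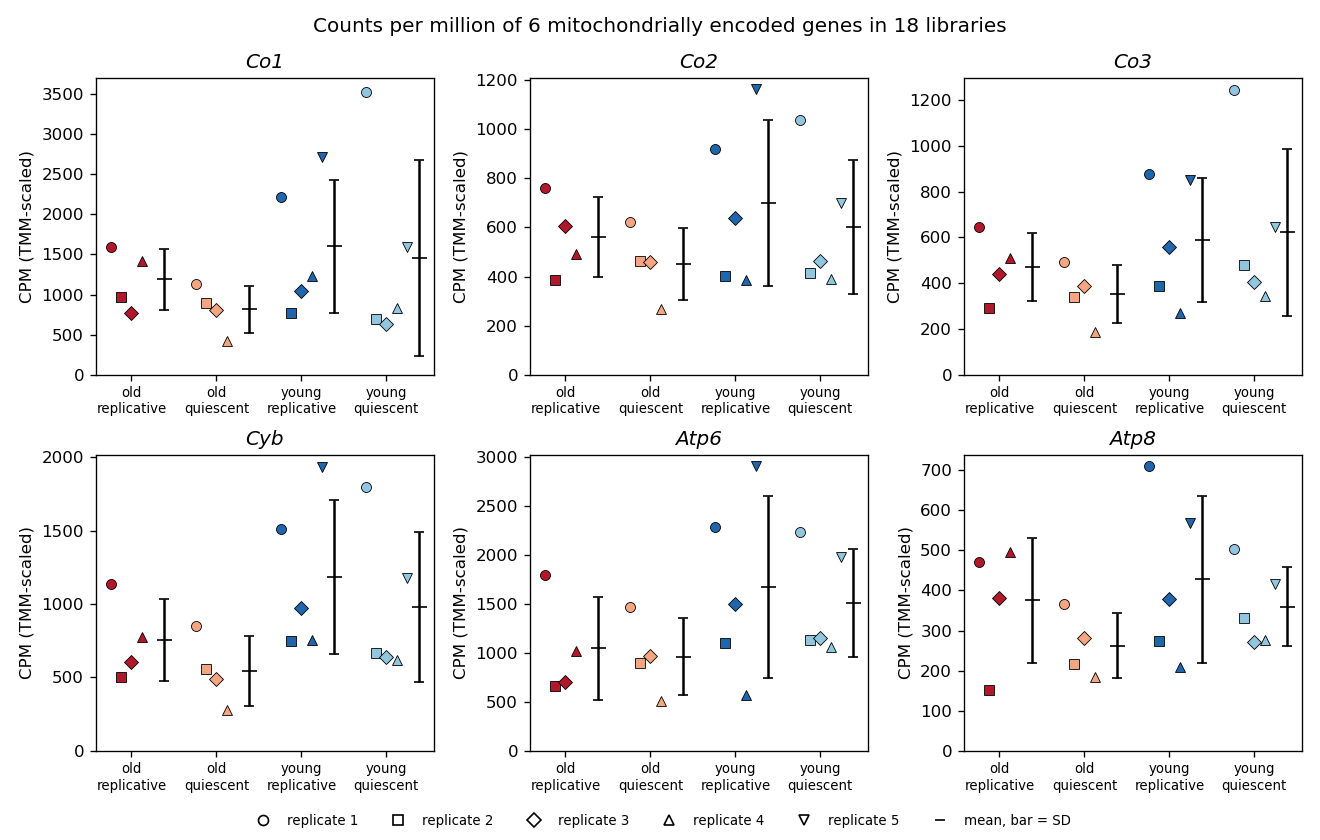
TMM-scaled CPM (vertical axis, starting at 0) of each of the 6 genes in 18 libraries, by group, with a symbol per library that marks its replicate number and the group mean with its SD to the right. Replicate 1 is the highest library in most groups and genes, and for every gene the replicative and quiescent libraries of an age overlap.

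The deposited log2 table, which scales the same counts by a different factor per library, gave a like picture. On that scale *Co1* averaged 12.89 ± 0.45 in old replicative and 12.18 ± 0.66 in old quiescent libraries (SD, n = 4 each), and 13.19 ± 0.75 in young replicative and 12.85 ± 1.11 in young quiescent libraries (SD, n = 5 each). *Atp6* averaged 12.64 ± 0.65 in old replicative and 12.41 ± 0.66 in old quiescent libraries, and 13.20 ± 0.93 in young replicative and 13.16 ± 0.57 in young quiescent libraries (SD, same n). The SDs exceeded the difference between the states in *Atp6* at both ages and in young *Co1*.

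Replicating against quiescent cells of old islets was the first comparison. None of the 6 genes passed edgeR's quasi-likelihood test at an adjusted p of 0.05, where 13.8% of the 14920 genes tested did. None passed at an unadjusted p under 0.05 either (27.6% of all genes). None was called by DESeq2, limma-voom, limma on the deposited log2 values or an edgeR fit of these groups alone, which called 19.9%, 7.07%, 14.1% and 4.41% of all genes. All 6 log2 fold changes were above 0, as were 50.4% of all genes, with a median of 0.45 against 0.0098 over all genes. The 6 genes varied together, so their signs are not 6 separate observations, here or in the comparisons below. The level of all genes moved with the fit: their median was -0.33 in limma-voom (37.7% above 0) and -0.35 in limma on the deposited log2 values (37.4% above 0), where the 6 genes had medians of 0.52 and 0.57. *Co1* averaged 1188 ± 379 CPM in old replicative and 813 ± 299 CPM in old quiescent libraries (SD, n = 4 each). On the log2 scale its fold change was 0.55 with a 95% interval of -0.45 to 1.54 (edgeR adjusted p = 0.505). *Atp8* had a log2 fold change of 0.52 (interval -0.23 to 1.26, edgeR adjusted p = 0.380) and *Cyb* one of 0.47 (-0.31 to 1.26, adjusted p = 0.456). *Co3* stood at 0.42 (-0.39 to 1.24, adjusted p = 0.529) and *Co2* at 0.31 (-0.43 to 1.04, adjusted p = 0.626). *Atp6* was nearest to 0 at 0.12 (-0.72 to 0.97, adjusted p = 0.883), and its sign turned without old replicative replicate 1 (-0.29) or old quiescent replicate 4 (-0.10). These intervals are wide and do not show that the levels were equal.

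In young islets, replicating against quiescent cells gave log2 fold changes between -0.080 and 0.27, with 5 of 6 above 0 (52% of all genes) and a median of 0.18 against 0.031 over all genes. Again 0 of the 6 genes were called by edgeR, where 2.47% of all genes were, and 0 had an unadjusted p under 0.05 (8.59% of all genes). DESeq2, limma-voom, limma on the deposited log2 values and the fit of these groups alone also called none of them, and 4.18%, 19.8%, 2.43% and 6.06% of all genes. *Cyb* averaged 1184 ± 522 CPM in young replicative and 980.0 ± 512 CPM in young quiescent libraries (SD, n = 5 each), and its log2 fold change was 0.27 with a 95% interval of -0.43 to 0.97 (edgeR adjusted p = 1.00). *Atp8* had 0.25 (-0.41 to 0.92), *Co2* 0.22 (-0.44 to 0.88), *Atp6* 0.15 (-0.61 to 0.90), *Co1* 0.13 (-0.75 to 1.02) and *Co3* -0.080 (-0.80 to 0.64), each with an edgeR adjusted p of 1.00. The signs rested on single libraries in 5 of the 6 genes. The *Co1* value lay between -0.14 and 0.78 over the fits that left out a library, and it was negative without young quiescent replicate 2 (-0.043), 3 (-0.058) or 4 (-0.014) or young replicative replicate 1 (-0.050) or 5 (-0.14). *Co3* was positive without young quiescent replicate 1 (0.34) or young replicative replicate 2 (0.014) or 4 (0.10). Without young replicative replicate 5, *Co2* (-0.039) and *Atp6* (-0.15) were negative, and without young replicative replicate 1, *Atp6* (-0.011) and *Atp8* (-0.026) were. *Cyb* kept its sign in each of the 18 fits that left out a library, between 0.022 and 0.62.

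Old against young quiescent cells gave the lowest unadjusted p-values. All 6 genes had log2 fold changes below 0, with a median of -0.74 against -0.040 over all genes, of which 46.1% lay above 0. None passed edgeR's test after adjustment, as was the case for all but 0.0268% of the genes tested. At an unadjusted p under 0.05 there were 2, *Cyb* and *Co3*, where 4.91% of all genes had one. This count was 0 without young quiescent replicate 1 or 5, without old quiescent replicate 3 or 4, and without the filter on low counts. It was 1 with limma on the deposited log2 values (3.83% of all genes) and 1 in the fit of the quiescent libraries alone (18.7%). With limma-voom it was 3, where 26.1% of all genes had such a p. *Cyb* averaged 543 ± 236 CPM in old quiescent (SD, n = 4) and 980.0 ± 512 CPM in young quiescent libraries (SD, n = 5). Its log2 fold change was -0.85 with a 95% interval of -1.61 to -0.094 (edgeR adjusted p = 0.916). *Co3* stood at -0.83 (-1.61 to -0.046, adjusted p = 0.980) and *Co1* at -0.84 (-1.80 to 0.11, adjusted p = 1.00). *Atp6* had -0.65 (-1.46 to 0.16), *Atp8* -0.46 (-1.17 to 0.25) and *Co2* -0.41 (-1.11 to 0.29), each with an edgeR adjusted p of 1.00. The fit of the quiescent libraries alone called 2.01% of genes but none of the 6. DESeq2 (0.383% of genes), limma-voom (10.7%) and limma on the deposited log2 values (0.0201%) called none of them either. *Co1* moved most with a single library, to -0.21 without young quiescent replicate 1, which held 3534 CPM.

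Among replicating cells, old against young also gave 6 log2 fold changes below 0, with a median of -0.38 against -0.053 over all genes, of which 47.5% lay above 0. The order of these medians was the other way round in limma-voom, -0.28 for the 6 genes against -0.39 for all genes (33.5% above 0), and in limma on the deposited log2 values, -0.26 against -0.45 (33.8% above 0). The 6 genes were therefore not shown to be lower than the typical gene. None of the 6 was called by edgeR, where 7.16% of all genes were, and none had an unadjusted p under 0.05, where 22.4% of all genes did. DESeq2, limma-voom, limma on the deposited log2 values and the fit of the replicative libraries alone called none of them, and 14.8%, 1.55%, 10.3% and 0.466% of all genes. *Atp6* averaged 1045 ± 525 CPM in old replicative (SD, n = 4) and 1671 ± 930.0 CPM in the young replicative group (SD, n = 5). Its log2 fold change was -0.68 with a 95% interval of -1.49 to 0.14 (edgeR adjusted p = 0.324). *Cyb* had -0.65 (-1.40 to 0.10, adjusted p = 0.307), *Co1* -0.43 (-1.38 to 0.52, adjusted p = 0.633), *Co3* -0.32 (-1.09 to 0.45, adjusted p = 0.662) and *Co2* -0.32 (-1.02 to 0.38, adjusted p = 0.630). *Atp8* was nearest to 0 at -0.19 (-0.90 to 0.51, edgeR adjusted p = 0.792), and its sign turned without old replicative replicate 2 (0.057) or young replicative replicate 1 (0.061). Without old replicative replicate 1, *Atp6* stood at its lowest value of -1.07 (edgeR adjusted p = 0.0859). Batches of old and young rats were separate, and the spread between libraries includes that between batches. Anything shared by all batches of an age cannot be told apart from age in either age comparison.

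**Figure D3:**
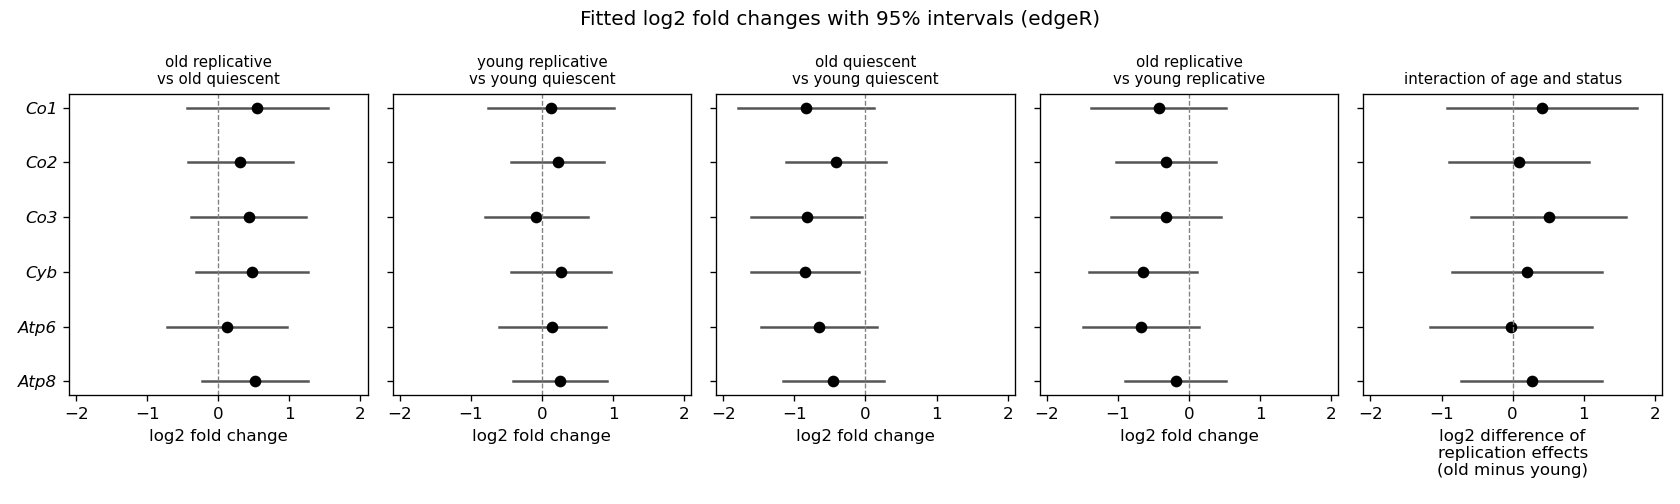
Fitted log2 fold changes (horizontal axis) of the 6 genes with their 95% intervals from the model of all 4 groups, one panel per comparison, the first-named group over the second; the last panel shows the old minus the young replication effect. All intervals include 0 except those of Cyb and Co3 in old against young quiescent cells, and neither passed after adjustment over all genes.

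The interaction of age and status compares the replication effect in old islets with that in young islets. None of the 6 genes passed in edgeR, as was the case for all but 0.0268% of the genes tested. None had an unadjusted p under 0.05 (10.1% of all genes), and DESeq2, limma-voom and limma on the deposited log2 values called none of them, and 2.34%, 0.0134% and 0% of all genes. Of the 6 values 5 were above 0 (49.2% of all genes), and in limma-voom and limma on the deposited log2 values all 6 were (34% and 37.4% of all genes). *Co3* had the largest value, 0.50 on the log2 scale (old minus young effect, 95% interval -0.58 to 1.59, edgeR adjusted p = 0.824), and *Atp6* the smallest in size at -0.025 (-1.16 to 1.11, adjusted p = 0.994). Between them lay *Co1* at 0.41 (-0.92 to 1.74), *Atp8* at 0.26 (-0.73 to 1.26), *Cyb* at 0.20 (-0.85 to 1.26) and *Co2* at 0.088 (-0.90 to 1.07). Without young quiescent replicate 1, *Co1* (-0.22), *Co2* (-0.20) and *Cyb* (-0.13) were negative.

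In 3 of the 4 groups the 6 genes spread more between libraries than the median abundant gene did. Their within-group SD was set beside that of the 458 other genes that averaged a log2 CPM of 8 or more, as a description of these libraries. In young replicative libraries the SD of log2 CPM ran from 0.61 (*Cyb*) to 0.92 (*Atp6*), against a median of 0.29 for the 458 genes. In old quiescent libraries it ran from 0.44 (*Atp8*) to 0.67 (*Cyb*) against 0.21, and in young quiescent libraries from 0.39 (*Atp8*) to 1.04 (*Co1*) against 0.32. In old replicative libraries, where other abundant genes also spread widely, it ran from 0.42 (*Co2*) to 0.79 (*Atp8*) against a median of 0.44. The SD of *Co1* was larger than that of 99.1% of the 458 genes in young quiescent and 95.4% in old quiescent libraries, but of 56.6% in old replicative ones, and that of *Co2* there lay below the median. The spread was not particular to the 6 genes: the SD of ENSRNOG00000029971, among the genes most like them, was 0.74 in old quiescent and 0.67 in young replicative libraries. That of ENSRNOG00000030644 was lower, 0.50 and 0.61 in these groups. In old replicative libraries the 2 genes had 0.86 and 0.41, in the same order. Both were picked for their correlation with the 6 genes.

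The 6 genes varied together. Over the 18 libraries the 15 pairs had Pearson correlations of log2 CPM between 0.73 (*Co1* and *Atp8*) and 0.94 (*Co2* and *Co3*), with a median of 0.89. With the group means taken off they lay between 0.67 and 0.95, so that the likeness was also there among libraries of the same group. All 6 genes share each library, its depth and its scaling, and no p is given for these correlations. Outside the 6, the genes most like them were ENSRNOG00000030644 and ENSRNOG00000029971, with mean correlations of 0.89 each with the 6 genes over the 18 libraries. Only 4 of the other 14914 genes tested had a mean above 0.8, and the median over them was 0.026. Neither of the 2 genes was called in any comparison. ENSRNOG00000030644 had a log2 fold change of 0.47 in old replicative against old quiescent (SE 0.33, edgeR adjusted p = 0.389) and -0.71 in old against young quiescent libraries (SE 0.32, edgeR adjusted p = 0.954).

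Within the set, the proportions of the 6 genes also varied between libraries. *Cyb* was the steadiest in proportion to its size, with 14.5% to 22.0% of the set's counts over the 18 libraries and a median of 17.7%. *Co1* held 17.7% to 36.1%, *Atp6* 16.6% to 32.2%, *Co2* 10.0% to 17.3%, *Co3* 7.93% to 12.9% and *Atp8* 4.87% to 10.9%. These are shares of counts and not of molecules, since the genes differ in length.

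Of 4 count ratios compared on the log2 scale, that of *Co1* to *Atp6* spread most over the 18 libraries (SD 0.51). Not every pair of the 6 genes was compared. Untransformed, the ratio of *Co1* to *Atp6* counts was 0.885, 1.47, 1.10 and 1.39 in old replicative libraries 1 to 4, against 0.772, 0.997, 0.839 and 0.814 in old quiescent ones. It was 0.974, 0.703, 0.699, 2.17 and 0.938 in young replicative libraries 1 to 5, against 1.59, 0.616, 0.549, 0.785 and 0.808 in young quiescent ones. In old islets 3 of the 4 replicative libraries lay above all quiescent ones and the first lay among them, while in young islets replicative replicate 4 and quiescent replicate 1 stood far above the rest of their groups. The group means were 1.21 ± 0.271 in old replicative and 0.855 ± 0.0982 in old quiescent libraries (SD, n = 4 each), and 1.10 ± 0.613 in young replicative and 0.869 ± 0.416 in young quiescent libraries (SD, n = 5 each).

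*Atp8* and *Atp6*, which share a mature RNA, did not keep a fixed ratio of counts. *Atp8* over *Atp6* was 0.263, 0.231, 0.539 and 0.485 in old replicative libraries 1 to 4, against 0.250, 0.241, 0.293 and 0.359 in old quiescent ones. It was 0.311, 0.249, 0.253, 0.368 and 0.195 in young replicative libraries 1 to 5, against 0.226, 0.292, 0.237, 0.261 and 0.210 in young quiescent ones. Old replicative replicates 3 and 4 had the highest ratios of the series, and the groups overlapped at both ages. The same 2 libraries had the most genes without a count in the series, 57.1% and 51.9%, and the part of this in the ratio was not tested. *Co3* over *Co2* stayed within a narrower range, 0.704 to 1.20 over the 18 libraries with a median of 0.858.

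**Figure D4:**
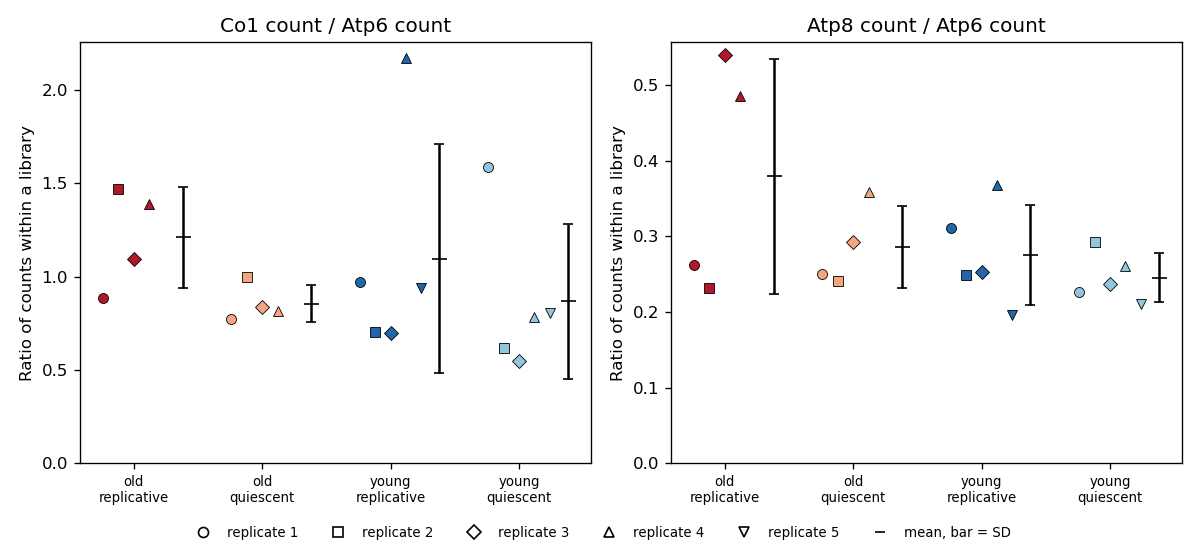
Ratio of Co1 to Atp6 counts (left) and of Atp8 to Atp6 counts (right) within each of 18 libraries, by group, with symbols for replicate numbers and the group mean with its SD. Young replicative replicate 4 (2.17) and young quiescent replicate 1 (1.59) lead the left panel, and old replicative replicates 3 (0.539) and 4 (0.485) the right one.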

How the data were processed

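RNA was measured in 18 libraries made with a stranded total RNA kit from sorted cells lysed with proteinase K, per the labels' protocols. In the deposited count table, each value is a whole read count for an Ensembl gene, not normalized. The submitters' processing notes name STAR, DESeq2 and rn6. Which program counted the reads, and with what strand setting, is not stated in the labels. Values in the other deposited table are log2 values: recomputing showed log2 of the count over a median-of-ratios size factor, plus 1 (largest difference 5.15e-14). No table at hand pairs rat Ensembl IDs with symbols (0 of 47357 reference genes carry one), so lists of nuclear subunits, regulators and cell type markers were not run.

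The count analysis used edgeR 4.0.16 under R 4.3.3: filterByExpr (minimum count 10, here 1.39 CPM in at least 4 libraries; total at least 15) kept 14920 genes. TMM scaling, 4 group means over all 18 libraries, robust quasi-likelihood F tests and Benjamini-Hochberg adjustment over all genes tested (threshold 0.05) followed. The fit held no batch term, although both states were sorted from every batch, because no label links a library to its batch. Intervals at 95% took their standard error from the fold change and its F value. The code was tested on simulated data, where most changes placed between old replicative and old quiescent libraries were missed. Alternatives used DESeq2 1.42.0 and limma 3.58.1. The 2 genes most like the set were those with the highest mean correlation of log2 CPM (prior count 2). The p-values measure the spread between libraries, each from pooled rats. The rule for the members uses no measured value, but members and lists were chosen with earlier results of these data known.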

Additional observations from a re-analysis of the deposited data

Results flagged for a closer look

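Samples far from the rest of their group were looked for with Dixon's criterion in 44 sets of values (CPM of each gene, summed share and 4 count ratios, in each group). It picked out 2, and chance picks about 1 in 20. The ratio of *Co1* to *Atp6* counts was 2.17 in young replicative replicate 4, where the other 4 libraries of the group lay between 0.699 and 0.974. The same ratio was 1.59 in young quiescent replicate 1, where the other 4 lay between 0.549 and 0.808. In young replicative replicate 4 *Atp6* was low (569 CPM) for its group, and in young quiescent replicate 1 *Co1* was high (3534 CPM).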

How the results depend on the processing

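None of the 6 genes was called in any comparison under any alternative: RLE and upper-quartile scaling, scaling without the 6 genes, thinning to 2723660 counts, no low-count filter, DESeq2, limma-voom with quality weights, limma on the deposited log2 values, fits of the 2 groups alone, and leaving out each of 18 libraries. With the replicate blocks described below included, adjusted p ranged from 0.136 to 1.00 for old and 0.219 to 1.00 for young replicative against quiescent cells, 0.0654 to 1.00 for old against young quiescent, 0.0859 to 0.984 for old against young replicative cells and 0.585 to 1.00 for the interaction. The interaction of *Atp6* (-0.025) was positive under RLE scaling (0.080), thinning (0.041), DESeq2 (0.080), limma-voom (0.15), limma on the log2 values (0.19), the replicate block (0.083) and a random replicate block (0.12). With limma-voom, *Co3* was 0.20 in young replicative against quiescent and *Co1* 0.044 in old against young replicative cells, turning sign; the cause was not tested.

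Leaving out single libraries turned signs within these ranges: *Atp6* -0.29 to 0.39 in old, and *Co1* -0.14 to 0.78, *Co2* -0.039 to 0.52, *Co3* -0.30 to 0.34, *Atp6* -0.15 to 0.37 and *Atp8* -0.026 to 0.42 in young replicative against quiescent cells. *Atp8* ran from -0.38 to 0.061 in old against young replicative cells. The interaction ran from -0.22 to 0.69 for *Co1*, -0.20 to 0.35 for *Co2*, -0.13 to 0.49 for *Cyb* and -0.41 to 0.27 for *Atp6*. Summed share differences kept their signs but not their sizes when single libraries were left out. Replicative minus quiescent ran from 0.0885 to 0.234 percentage points in old and from 0.0299 to 0.261 in young islets. Old minus young ran from -0.302 to -0.0938 among quiescent and from -0.267 to -0.0967 among replicative libraries.

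Replicate numbers are shared between quiescent and replicative libraries, but no label says that they mark islet batches. Deviations from group means over 14914 other genes correlated above 0.1 in 7 of 9 same-numbered pairs (0.0712 to 0.506 over all 9). Of the 18 libraries, 17 correlated best with their own number. Over the 6822 of these genes that averaged a log2 CPM of 4 or more, every library did. There the same-numbered correlations ran from 0.0845 to 0.247 in old and from 0.330 to 0.519 in young pairs. The design pairs the states by batch, but that the numbers mark the batches is only a hint from the data. Between same-numbered libraries the summed share was higher in the replicative one in 4 of 4 old and 4 of 5 young cases, as was the *Co1* to *Atp6* ratio, given without a test. With the replicate block, 1957 genes were called in old (2053 without it), 400 in young (368) and 11 in the interaction (4), and 0 of the 6. At an unadjusted p under 0.05, edgeR with the replicate block had 1 of the 6 in old (28.2% of all genes) and 0 in young (9.1%). With the block in the 2-group fits, chosen after seeing the data as was the random block, 0 of the 6 were called. In old islets that fit called 3.86% of all genes. The share for young islets is not given here, so the 0 there cannot be read against it. The random block also called 0 of the 6, and 24.7% of all genes in old and 3.18% in young islets. Age comparisons could not be fitted with a fixed block, which is nested in age.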
